A study of Mus musculus with 8 samples.

Results

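The E proteins and their Id inhibitors are a small set of transcriptional regulators, represented here by 6 genes: the E protein genes Tcf3, Tcf4 and Tcf12, and the inhibitor genes Id1, Id2 and Id3. Members were taken as the probe sets that the platform annotation assigns to these symbols alone. Each gene had 1 such probe set, so the set is 6 of the 8251 genes named on the array and 6 of its 12422 probe sets that are not controls, and no probe set was shared between members. The Tcf3 probe set is that of the E2A gene; Tcf7l1 and Tcf7l2, Wnt pathway factors that have carried similar names, have probe sets of their own and are not members.

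E proteins are basic helix-loop-helix transcription factors. They bind DNA as dimers at short E-box motifs, through a basic region that lies beside the helix-loop-helix. Tcf3 encodes the E2A proteins and Tcf12 encodes HEB, the E proteins best known in thymocytes, where E2A and HEB dimers maintain the recombinase genes and hold cells at the double positive stage. Id proteins have the helix-loop-helix but no basic region, so their dimers with E proteins do not bind DNA. In mouse thymocytes, signalling through the T cell receptor (TCR) is known to induce Id3 by way of Egr factors, and loss of E protein activity is part of positive selection.

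RNA came from mouse double positive thymocytes, immature T cells with both the CD4 and the CD8 coreceptor, in a series that engaged the TCR with antibodies. The 8 arrays of total RNA comprised 2 in each of 4 groups that the titles name control, overnight control, Valpha2 and Vbeta5. Valpha2 and Vbeta5 are variable segments of the TCR alpha and beta chain. The sources used here give no strain, age, antibody clone, dose or time, beyond the word overnight in the name of 1 control group. Each group has an array numbered 1 and an array numbered 2, and the labels do not say whether these came from separate animals or cultures, so the spread behind every p-value may be technical.

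The deposited values are a normalized linear signal, whose precision is limited by the small number of arrays. For Gapdh, the control probe set at the 3' end exceeded that at the 5' end, as it does in degraded RNA, by a log2 ratio of 0.95 on overnight control array 1, 1.72 on Valpha2 array 1 and 0.48 on Vbeta5 array 1. It lay between -0.28 and -0.09 on the other 5 arrays. Of 10 double positive markers 9 had a probe set and none was under a signal of 17 on any array; their summed signal was 50395 to 53798 in the control, 60366 to 65655 in the overnight control, 51190 to 67655 with Valpha2 and 15614 to 32021 with Vbeta5. The sum includes Cd4, Rag1, Rag2, Ptcra and Dntt, which are also in the list of E protein targets below. The sum and that list are therefore not independent. In bulk RNA, fewer cells of a type and less RNA per cell cannot be told apart.

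The promoters of Id3 and Tcf12, the members with the smallest p-values, are printed below as the 250 bases before the annotated start (RefSeq, GRCm38.p6) to show which E-box and Egr letters stand there. Promoters were searched for 4 of the 6 members. Id1 had no promoter entry, and Tcf4 was left out of the search. Capitals mark matches to the E-box CANNTG or to the Egr motif GCGNGGGCG, searched on both strands. Tcf12 has 3 annotated starts, of which 2 lie in GC-rich sequence and are shown.
Id3 (chr4:136143572-136143821, plus strand): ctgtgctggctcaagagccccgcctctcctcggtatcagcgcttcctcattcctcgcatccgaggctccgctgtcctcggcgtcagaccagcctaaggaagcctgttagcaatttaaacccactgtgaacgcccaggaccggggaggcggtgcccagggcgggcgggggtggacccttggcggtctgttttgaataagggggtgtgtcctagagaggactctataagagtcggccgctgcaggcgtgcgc
Tcf12 start 1 (chr9:72111820-72112069, minus strand): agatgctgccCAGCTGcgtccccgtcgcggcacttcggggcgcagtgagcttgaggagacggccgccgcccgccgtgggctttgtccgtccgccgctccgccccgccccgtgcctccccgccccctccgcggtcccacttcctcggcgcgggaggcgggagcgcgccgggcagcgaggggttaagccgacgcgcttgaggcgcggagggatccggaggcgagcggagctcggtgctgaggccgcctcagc
Tcf12 start 2 (chr9:72111202-72111451, minus strand): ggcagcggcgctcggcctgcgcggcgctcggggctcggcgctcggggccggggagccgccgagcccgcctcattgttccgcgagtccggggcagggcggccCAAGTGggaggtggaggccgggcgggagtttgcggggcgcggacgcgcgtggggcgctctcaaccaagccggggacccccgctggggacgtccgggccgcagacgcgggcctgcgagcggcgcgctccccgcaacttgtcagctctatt
The Id3 window held 0 matches to either motif. Each of these Tcf12 windows held 1 E-box, CAGCTG in start 1 and CAAGTG in start 2, and no Egr match. The Tcf12 start that is not shown held 0 matches to either motif. The E-box letters occurred in 66.2% of the 32851 promoter windows of this length and the Egr letters in 4.7%, so a match is a description of these letters only. The array measures Tcf12 with 1 probe set and does not separate its starts.

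Id3 was lowest in the control and highest with Vbeta5. Its signal was 1135 and 1125.9 on the control arrays, 1838.9 and 1428.7 on the overnight control arrays, 1469.7 and 1972.7 on the Valpha2 arrays, and 2728.3 and 2881.5 on the Vbeta5 arrays. Both Vbeta5 arrays lay above all 6 others, both control arrays lay below all others, and the overnight control and Valpha2 arrays overlapped. Differences are given on the log2(signal + 17) scale, which understates changes of dim probe sets, and were tested with limma over 8281 probe sets with Benjamini-Hochberg adjustment.

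Against the control, Id3 rose 2.46-fold with Vbeta5, from 1130 ± 6.43 to 2805 ± 108 (SD, n = 2; log2 difference 1.30 ± 0.23 SE, limma adjusted p = 0.0205). In this fit, which has no block for the array number, none of the other 4 members tested passed in any of the 6 comparisons; with the block Tcf12 passed in 2 of them, as given with its values. In Vbeta5 against the control 1.61% of all probe sets passed in either direction and 0.616% were higher. The rise was 1.25 between the arrays numbered 1 and 1.34 between those numbered 2. Leaving out any 1 of the 4 arrays ended the call while the difference stayed between 1.26 and 1.34: the limma adjusted p was 0.194 without control array 1, 0.157 without control array 2, 0.104 without Vbeta5 array 1 and 0.136 without Vbeta5 array 2. It also ended after shifting the arrays to a common median (1.10, adjusted p = 0.11) and with eBayes without the trend (adjusted p = 0.106).

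The overnight control and Valpha2 means also lay above the control. The overnight control exceeded the control by 0.51 ± 0.23 (SE; limma adjusted p = 0.546), and Valpha2 exceeded it by 0.58 ± 0.23 (adjusted p = 0.56); neither passed. Vbeta5 exceeded the overnight control by 0.78 ± 0.23 (95% interval 0.28 to 1.29, adjusted p = 0.244) and Valpha2 by 0.71 ± 0.23 (0.21 to 1.22, adjusted p = 0.348), again without passing. Valpha2 and the overnight control differed by 0.07 (95% interval -0.43 to 0.57, limma adjusted p = 1), with the sign turned under quantile normalization. The order of the group means was therefore control, overnight control, Valpha2, Vbeta5, and the middle groups did not differ beyond their spread. These comparisons share groups and are not independent.

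**Figure D1:**
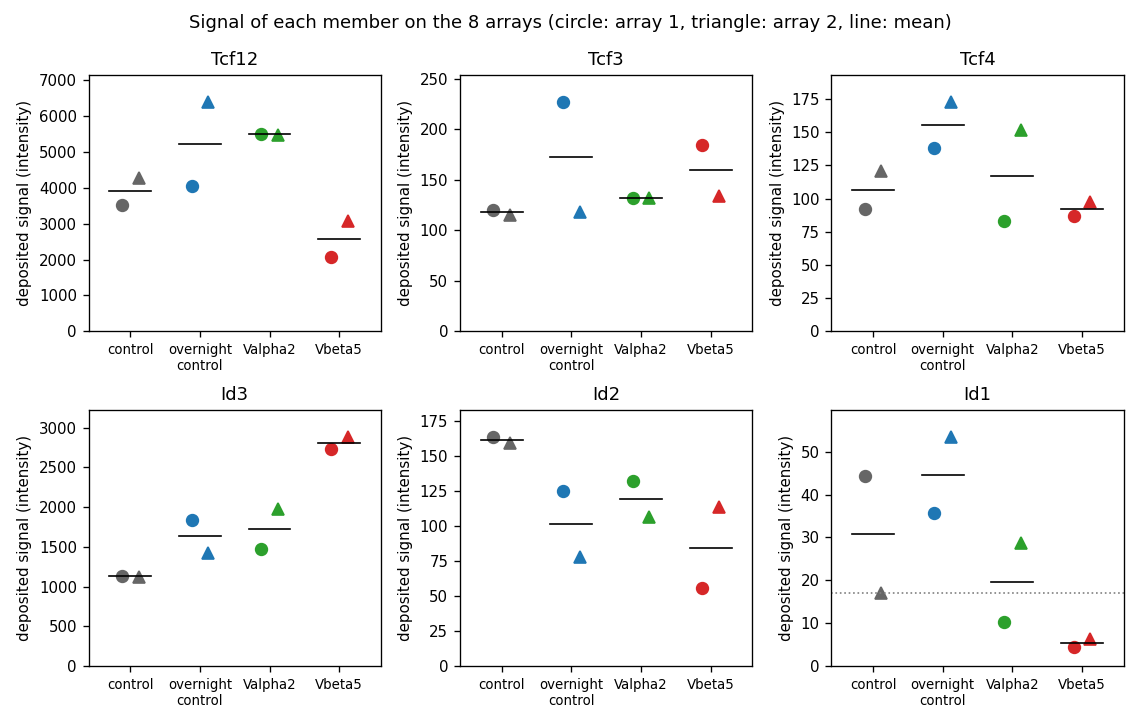
Deposited signal of the 6 members on each array, by group; circles are arrays numbered 1, triangles arrays numbered 2 and lines group means, and the dotted line in the Id1 panel is the offset of 17. The Vbeta5 arrays are the highest for Id3 (2728.3 and 2881.5) and the lowest for Tcf12 (2063.3 and 3081.2) and Id1 (4.4 and 6.4).

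Tcf12, which encodes HEB, was lowest with Vbeta5, where Id3 was highest. In the overnight control and with Valpha2 the means of both genes lay above the control. Its signal was 3524.4 and 4276.3 in the control, 4032.5 and 6373.1 in the overnight control, 5502.1 and 5475.2 with Valpha2, and 2063.3 and 3081.2 with Vbeta5. The Vbeta5 arrays were the 2 lowest of the 8. Vbeta5 differed from Valpha2 by -1.12 ± 0.28 (SE; 95% interval -1.73 to -0.50, limma adjusted p = 0.198) and from the overnight control by -1.00 ± 0.28 (-1.62 to -0.39, adjusted p = 0.215), a 2.00-fold difference in the latter. Neither passed over all probe sets, although the unadjusted p-values of the limma fit were 0.00224 and 0.00446. A fit that blocks on the array number called both, at a limma adjusted p of 0.0297 against Valpha2 and 0.0397 against the overnight control. That fit called 90 and 124 of the 8281 probe sets in these comparisons. The call thus depends on whether equal numbers mark paired arrays, which the labels do not say. The arrays numbered 1 of the overnight control, Valpha2 and Vbeta5 are also those with the high Gapdh ratios given above. In these groups array number and RNA quality cannot be told apart.

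Within array numbers, the Tcf12 difference between Vbeta5 and the overnight control was -0.96 for the arrays numbered 1 and -1.04 for those numbered 2. Against the control, the difference with Vbeta5 was -0.62 ± 0.28 (SE; adjusted p = 0.446), and the control lay below the overnight control and Valpha2 in mean signal. The overnight control differed from the control by 0.38 (95% interval -0.23 to 1.00, adjusted p = 0.685) and Valpha2 by 0.50 (-0.12 to 1.11, adjusted p = 0.77), so a rise of Tcf12 without Vbeta5 was not shown. In mean signal the order was Vbeta5, control, overnight control, Valpha2, and Valpha2 and the overnight control overlapped.

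**Figure D2:**
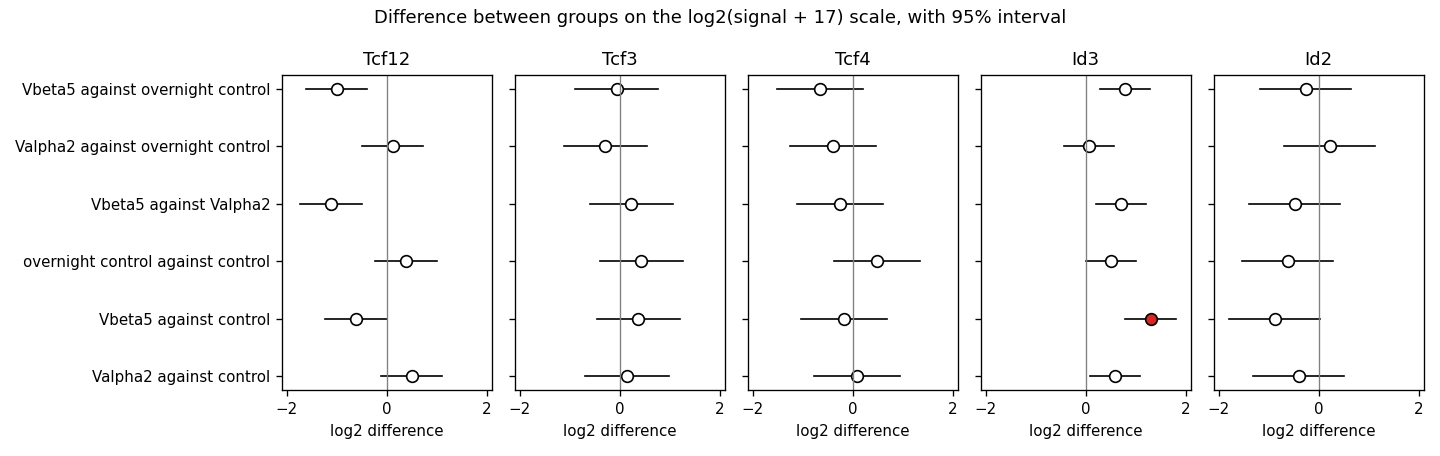
Log2 differences of the 5 tested members in each of the 6 comparisons (first group minus second), with 95% intervals from limma; a filled point passed an adjusted p of 0.05 in the fit without a block. Only Id3 in Vbeta5 against control (1.30) is filled, and the intervals of Tcf12 in Vbeta5 against overnight control and against Valpha2 lie below 0.

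Set against each other within an array, Id3 and Tcf12 separated the Vbeta5 arrays from the rest. The ratio of Id3 to Tcf12, relative to its mean in the control, was 4.48 on Vbeta5 array 1 and 3.18 on Vbeta5 array 2. It was 1.56 and 0.769 on the overnight control arrays, 0.915 and 1.23 on the Valpha2 arrays and 1.11 and 0.905 on the control arrays. A ratio within an array shows unequal change of the probe sets only. It was formed after the values were known and is given without a test.

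**Figure D3:**
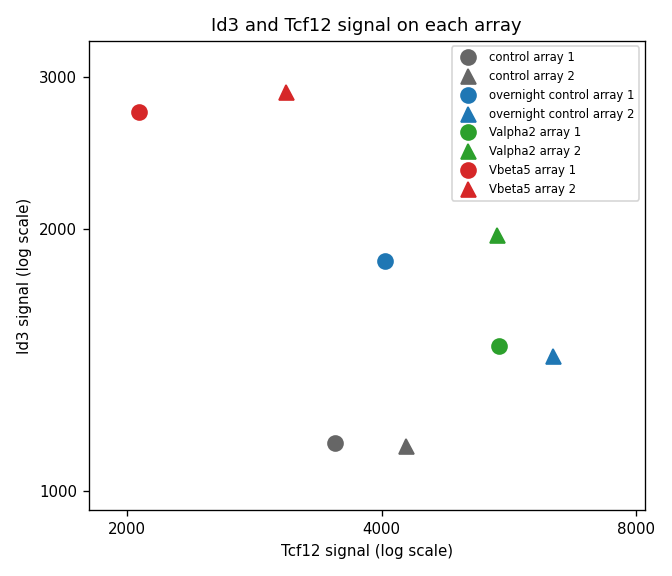
Id3 signal against Tcf12 signal on each of the 8 arrays, both on log axes; colour marks the group and shape the array number. The Vbeta5 arrays lie alone at high Id3 and low Tcf12, and the overnight control and Valpha2 arrays lie among each other.

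Tcf3, which encodes the E2A proteins, had a far lower signal than Tcf12 and did not pass in any comparison. Its signal was 120 and 115.6 in the control, 226.7 and 118.6 in the overnight control, 132.1 and 131.7 with Valpha2, and 184.5 and 134.3 with Vbeta5. The highest values were those of overnight control array 1 and Vbeta5 array 1, which are 2 of the 3 arrays with high 3' to 5' ratios. The third, Valpha2 array 1, had the highest Gapdh ratio (1.72), yet its Tcf3 signal (132.1) was close to that of Valpha2 array 2 (131.7). The part of RNA quality in the Tcf3 signal was not tested. Vbeta5 differed from the overnight control by -0.06 (95% interval -0.89 to 0.77, limma adjusted p = 1), and the sign turned when overnight control array 1 was left out (0.36, adjusted p = 0.746).

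Tcf4 encodes a further E protein, best known for plasmacytoid dendritic cells and also used in B cell development. Its signal was 92 and 120.9 in the control, 138.3 and 172.5 in the overnight control, 82.8 and 151.8 with Valpha2, and 86.7 and 97.6 with Vbeta5. Both Vbeta5 arrays lay below both overnight control arrays, with a difference of -0.65 ± 0.39 (SE; 95% interval -1.52 to 0.21, limma adjusted p = 0.756). The difference between Vbeta5 and the control was -0.17 (adjusted p = 0.913). The summed signal of 7 B cell markers was 830 to 1046 in the overnight control and 766 to 882 with Valpha2. It was 664 to 719 with Vbeta5 and 393 to 624 in the control. For 5 dendritic cell markers the sum was 354 to 1078, 416 to 564, 770 to 890 and 451 to 469 in the same order. The part of B cells and dendritic cells in the Tcf4 signal was not tested. The B cell sum includes Cd79a and Igll1, which are also in the list of E protein targets below, so the sum and that list are not independent.

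Id2, an inhibitor known from natural killer cells and innate lymphoid cells, was highest in the control. Its signal was 163.2 and 159 there, 124.6 and 78 in the overnight control, 132 and 106.5 with Valpha2, and 55.6 and 113.1 with Vbeta5. The control arrays lay above the other 6 arrays. The difference from the control was -0.87 ± 0.41 (SE; 95% interval -1.78 to 0.04, limma adjusted p = 0.472) with Vbeta5, -0.62 (adjusted p = 0.654) in the overnight control and -0.39 (adjusted p = 0.905) with Valpha2. Summed markers of natural killer cells, 4 of 6 on the array, were lowest in the control, at 245 to 282 against 447 to 711 on the other arrays. Of these 4 markers 1 to 3 were under 17 on each array. The part of these cells in the Id2 signal was not tested. Vbeta5 and the overnight control differed by -0.26, with the sign turned when Vbeta5 array 1 (0.17) or overnight control array 1 (0.03) was left out.

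Id1, an inhibitor induced by bone morphogenetic proteins in many cells, was near the bottom of the signal range and was left out of the fit. Its signal was 44.3 and 17.1 in the control, 35.8 and 53.4 in the overnight control, 10.3 and 28.8 with Valpha2, and 4.4 and 6.4 with Vbeta5. The Vbeta5 arrays were the lowest of the 8, and both lay under 17, as did Valpha2 array 1. With no filter on dim probe sets, the difference between Vbeta5 and the overnight control was -1.45 (limma adjusted p = 0.399); it was -1.92 with an offset of 8.5, so its size depends on the offset. Markers of endothelium and fibroblasts, cells that express Id1, summed to 720 to 838 in the control, 588 to 1805 in the overnight control, 748 to 901 with Valpha2 and 871 to 1234 with Vbeta5, with 2 to 3 of 7 under 17 on each array. The part of these cells in the Id1 signal was not tested.

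Counted over the 5 tested members, 0 passed for Vbeta5 against the overnight control (0.616% of all probe sets passed; 2 members and 8.49% of all had an unadjusted p under 0.05 by limma). With the array number as a block 1 member, Tcf12, passed there, beside 124 of the 8281 probe sets. For Vbeta5 against Valpha2 0 passed as well (0.278% of all; 2 members and 8.19% of all unadjusted), and again 1, Tcf12, with the block, beside 90 of the 8281 probe sets. For the overnight control against the control 0 passed (0.181% of all; 1 member and 9% of all unadjusted), for Valpha2 against the control 0 (0.399%; 1 member and 7.46% unadjusted) and for Valpha2 against the overnight control 0 (0%; 0 members and 1.62% unadjusted). For Vbeta5 against the control, where Id3 passed, 2 members and 11.1% of all probe sets had an unadjusted p under 0.05. The arrays of the 2 groups did not overlap in 3 of 5 members for Vbeta5 against the overnight control (31.1% of all probe sets), in 3 against Valpha2 (40.4%) and in 4 against the control (48.4%). For Valpha2 the same held for 0 members against the overnight control (20.8%) and 4 against the control (42.4%), and the overnight control stood apart from the control in 3 (37.9%). With 2 arrays a group an exact permutation test cannot go below p = 0.333, so none was run.

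Among genes that E proteins are known to activate in lymphocytes, those that passed were lower with Vbeta5. Of 16 listed, 14 were tested; against the overnight control 2 fell and 12 did not pass, where 0.616% of all probe sets passed in either direction, with a median of -0.55 on the log2 scale against -0.01 over all probe sets. The 2 were the recombinase genes Rag1 (-2.44 ± 0.37 SE, limma adjusted p = 0.0189) and Rag2 (-3.65 ± 0.54, adjusted p = 0.0167). Against the control Rag2 (-3.15, adjusted p = 0.0193) and the coreceptor gene Cd4 (-1.72 ± 0.35 SE, adjusted p = 0.0358) fell, where 1.61% of all passed, and the median was -0.36 against 0.08 over all. Of the 14 differences from the control 9 were below 0 and 5 above. Those above include Il7r (1.05, limma adjusted p = 0.429) and Cd79a (1.03, adjusted p = 0.561). From the overnight control 11 were below 0 and 3 above. Against Valpha2 Rag2 fell (-3.44, adjusted p = 0.0407), where 0.278% of all passed. With the array number as a block 4 fell against the overnight control: Rag1, Rag2, Dntt (-1.78, limma adjusted p = 0.0101) and Cd4 (adjusted p = 0.0484), where Dntt encodes terminal transferase. Dntt had 3 tested probe sets, of which only the brightest is given. In the fit with the block 124 of the 8281 probe sets passed against the overnight control. In that fit Rag1 also fell against the control (adjusted p = 0.0266), and Rag1 (adjusted p = 0.0173) and Dntt (adjusted p = 0.0226) against Valpha2, which made 3 in each. Of the 8281 probe sets 235 passed against the control and 90 against Valpha2 in that fit.

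The Rag2 signal was 516.3 and 826.6 in the control, 737.4 and 1184.8 in the overnight control, 931.1 and 692.3 with Valpha2, and 133 and 21.2 with Vbeta5. Cd4 was at 3591.2 and 2362, 1985.5 and 3189.5, 1527.6 and 2365.2, and 1122.7 and 680.1 in the same order of groups. Both genes were lowest on the Vbeta5 arrays, without overlap with any other group. Ptcra, which encodes the pre-TCR alpha chain and is a known target of HEB, was at 56.3 and 59 with Vbeta5 against 79.4 to 181.8 on the other 6 arrays (-1.03 ± 0.45 SE from the overnight control, limma adjusted p = 0.566). Rag1 had another tested probe set, at the lower signal of 86.4 to 260.9, in which the Vbeta5 and overnight control arrays overlapped. There both Vbeta5 arrays (143.6 and 260.9) lay above both control arrays (86.4 and 143.1), opposite to the brighter Rag1 probe set.

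Partners and corepressors of E proteins had 10 of 14 members tested, and 1 passed. Cbfa2t3, a corepressor of the ETO family that can bind E proteins, fell with Vbeta5 against the overnight control (-2.88 ± 0.39 SE, limma adjusted p = 0.0143), against Valpha2 (-2.72, adjusted p = 0.0349) and against the control (-2.42, adjusted p = 0.0162). Over all probe sets 0.616%, 0.278% and 1.61% passed in these comparisons. Its signal was 32.7 and 35.8 with Vbeta5 and 234.4 to 551.6 on the other 6 arrays. A second probe set was also lowest with Vbeta5, at 16.2 and 23.2 against 54.7 to 188. The list's median was 0.01 for Vbeta5 against the overnight control, beside -0.01 over all probe sets.

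Among known inducers of Id genes 9 of 14 were tested, and the 2 that passed were Egr factors. Egr1, at 2720.2 and 2716.8 with Vbeta5 against 647.6 to 1043.2 on the other arrays, rose by 1.92 ± 0.22 (SE) from the overnight control (limma adjusted p = 0.0106), and Egr2 rose by 3.21 ± 0.36 (adjusted p = 0.0106), from 343.9 and 210.3 to 2200.4 and 3141.1. Both also rose against Valpha2 (1.71 and 2.71, adjusted p = 0.0284 for each) and against the control (1.48 and 3.22, adjusted p = 0.0124 and 0.00592), beside 0.616%, 0.278% and 1.61% of all probe sets in these 3 comparisons. The 7 other inducers tested, receptors and Smad proteins of the bone morphogenetic protein and transforming growth factor pathways, did not pass, and the list's median was 0.07.

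In these 3 lists 0 genes passed for Valpha2 against the overnight control or against the control, or for the overnight control against the control, by limma, with or without the block. Of the 5 list calls for Vbeta5 against the overnight control, 0 were kept without Vbeta5 array 2, and 4 when Vbeta5 array 1 was left out. Leaving out overnight control array 1 kept 3, and so did leaving out overnight control array 2. Of the 5 against the control, 0 were kept without either control array, 2 without Vbeta5 array 1 and 1 without Vbeta5 array 2. Of the 4 against Valpha2, 0 were kept without Valpha2 array 1 or without Vbeta5 array 2 and 2 without either other array. Every one kept its sign in these settings.

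**Figure D4:**
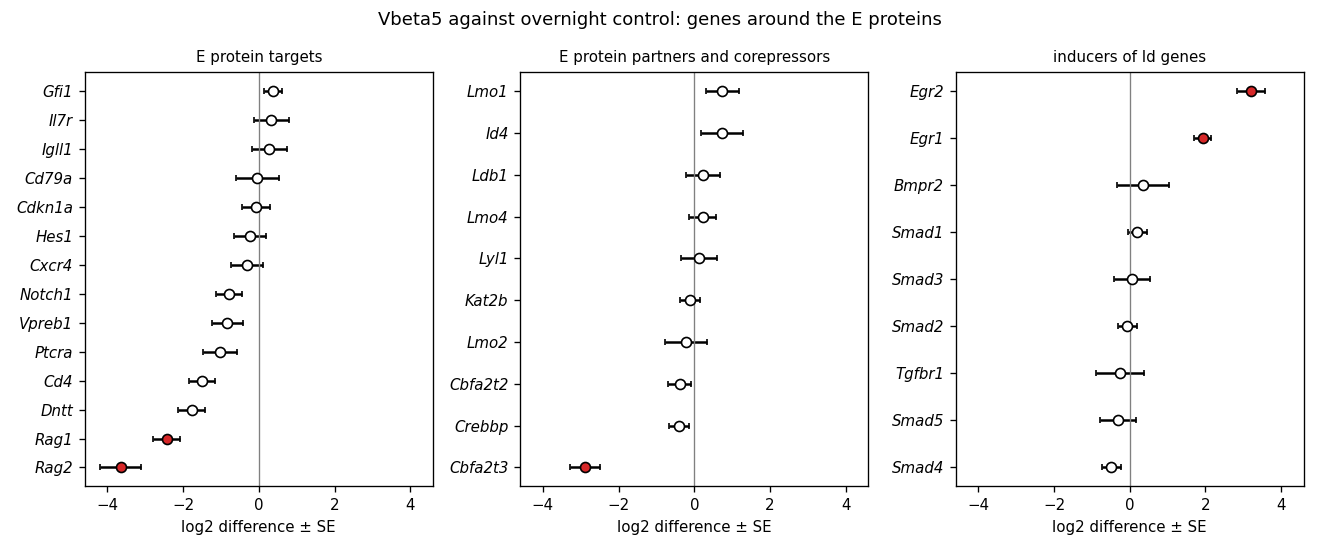
Log2 difference ± SE between Vbeta5 and the overnight control for the tested genes of 3 lists: E protein targets, partners and corepressors, and inducers of Id genes; filled points passed an adjusted p of 0.05 in the fit without a block. Rag1, Rag2 and Cbfa2t3 lie lowest and Egr1 and Egr2 highest.

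The likeness of each member's pattern to other genes was measured as Pearson's r of log2(signal + 17) over the 8 arrays, among 7369 probe sets of other single genes, and is a description in which arrays of a group share their treatment. Id3 was most like Pfkp (r = 0.960), Nr4a1 (0.956) and H2-DMa (0.955), where Nr4a1 is an immediate early nuclear receptor of TCR signalling and Pfkp a glycolytic enzyme. Tcf12 was most like Usp15 (0.973), Foxo3 (0.972) and Kctd20 (0.971). Foxo3 is a transcription factor restrained by growth factor signalling and Usp15 a deubiquitinase. Tcf3 was most like Uts2r (0.987), H2-M2 (0.987) and Rpl37a (0.981), Tcf4 like Ivd (0.933), Egln2 (0.932) and Dnajb4 (0.926), and Id2 like Haus4 (0.951), Hat1 (0.926) and Ckap2 (0.924), the last of which encode a spindle protein complex subunit, a histone acetyltransferase and a spindle-associated protein.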

How the data were processed

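The authors deposited 1 table of intensity values for 12488 probe sets and 8 arrays, which per the labels are normalized; the sources used here give no software, method or detection calls. The intensity was used as deposited. Control probe sets (66) were left out, an offset of 17, the 20th percentile of the positive values, was added before log2, and the dimmest 33.3% of probe sets by mean were left out, which left 8281, with 5 of the 6 members. Symbols came from the platform annotation, updated by gene identifier with a RefSeq table (GRCm38.p6); 10833 probe sets had 1 symbol, 396 several and 1193 none.

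Groups came from the sample titles. limma 3.58.1 in R 4.3.3 fitted 1 mean per group over all 8 arrays, with a variance trend in eBayes, 4 residual and 6.33 prior degrees of freedom, and Benjamini-Hochberg adjustment over all tested probe sets within each of 6 comparisons (two-sided, threshold 0.05). The fit was run on simulated data with 1 spread for all probe sets, smaller than the spread of these arrays. That run checked the code and does not measure how often the fit errs on these data. Values are mean ± SD with n = 2. The titles give each group the array numbers 1 and 2 without saying what a number marks. Deviations of same-numbered arrays from their group means correlated at r = 0.104 to 0.345 over the 6 pairs of groups, all over 0.1, so values with the number as a block are given beside results whose call they change.

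Every member was named, with list genes that passed and a fixed few (Rag1, Rag2, Ptcra, Cd4, Egr1, Egr2, Cbfa2t3). Egr3 had no tested probe set. Il7r and Cd79a were also given, as targets that were higher with Vbeta5 against the control without passing. Each list gene stands for its brightest tested probe set. The members, lists and alternatives were chosen with earlier results of these data known. Alternatives tried were a common median or quantile normalization of the arrays, a floor or an offset of 8.5, no filter, leaving out the dimmest 50%, no trend, a replicate block, fitting 4 arrays, and leaving out arrays.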

Additional observations from a re-analysis of the deposited data

How the results depend on the processing

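The members' calls were few and depended on the spread estimate. For Vbeta5 against the control the count of members past the threshold was 1; it was 0 at a common median, 0 without the trend and 0 without any single array. A common median removes a shift of 0.23 (log2) between the overnight control and the control, 0.20 between Vbeta5 and the control and 0.14 between Valpha2 and the control, so differences from the control are relative to it. Over all probe sets, the 51 calls for Vbeta5 against the overnight control became 28 at a common median, 0 without the trend, 28 in a fit of 4 arrays and 144 without the 3 arrays with high 3' to 5' ratios, and 0 to 31 leaving out single arrays. The 133 calls for Vbeta5 against the control became 20 without the trend, 209 with 4 arrays and 293 without the 3 arrays, and 0 to 49 leaving out single arrays. The 23 for Vbeta5 against Valpha2 became 0 at a common median, 0 without the trend, 0 with 4 arrays and 41 without the 3 arrays, and 0 to 21 leaving out single arrays. The 15 for the overnight control against the control became 0 without the trend, 31 with 4 arrays and 69 without the 3 arrays, and 0 to 119 leaving out single arrays. The 33 for Valpha2 against the control became 13 with quantile normalization, 11 at a common median, 10 with a floor, 10 with no filter, 0 without the trend, 52 with 4 arrays and 53 without the 3 arrays, and 0 to 5 leaving out single arrays. The 0 for Valpha2 against the overnight control became 0 to 1 leaving out single arrays. Of the calls of list genes for Vbeta5, 5 of 5 against the overnight control, 3 of 5 against the control and 0 of 4 against Valpha2 were kept at a common median; without the trend 0, 1 and 0 were kept, and in a fit of 4 arrays 4, 5 and 0. The causes were not tested. Leaving out the 3 arrays leaves 1 array in each of the overnight control, Valpha2 and Vbeta5, so the spread comes from the 2 control arrays alone and the lone arrays are assumed to vary like these; those counts say nothing about stability.

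With the array number as a replicate block the counts over all probe sets were 124 for Vbeta5 against the overnight control, 90 against Valpha2, 235 against the control, 99 for the overnight control and 89 for Valpha2 against the control. The block raised every count that was above 0. Under it 1 member passed in each of Vbeta5 against the overnight control (Tcf12, -1.00, limma adjusted p = 0.0397) and Vbeta5 against Valpha2 (Tcf12, -1.12, adjusted p = 0.0297). The block changed no other member's call.

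No member difference that passed turned its sign. Signs turned among differences that did not pass, with adjusted p-values of 0.746 or more. Tcf3 against the overnight control turned with Vbeta5 to 0.16 without the 3 arrays and with single arrays left out ranged from -0.48 to 0.36; with Valpha2 it turned to 0.13 without the 3 arrays and ranged from -0.71 to 0.13. Tcf12 with Valpha2 against the overnight control turned to -0.22 without the 3 arrays and ranged from -0.21 to 0.44. Id2 with Vbeta5 turned against the overnight control to 0.45 and against Valpha2 to 0.075 without the 3 arrays, and against the overnight control ranged from -0.68 to 0.17; with Valpha2 it ranged from -0.062 to 0.51. Id3 with Valpha2 against the overnight control turned to -0.0074 with quantile normalization and ranged from -0.14 to 0.28. Tcf4 with Valpha2 against the control turned to -0.057 with quantile normalization and -0.055 at a common median and ranged from -0.30 to 0.46; with Vbeta5 it ranged from -0.34 to 0.00018 against the control and from -0.63 to 0.13 against Valpha2.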
